A study of Homo sapiens with 2 samples.

Results

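The subunits of the oxidative phosphorylation complexes were compared between 2 RNA sequencing libraries of 468 cells, an epithelioid human breast cancer cell line grown in L15 medium with serum. For the knockdown library, a Smart Silencer, which is a mix of silencing oligonucleotides, was used against the antisense RNA THAP7-AS1, and for the control library cells received si-NC, a negative control. Cells were collected 48 h after transfection. Since the silencer stands in the treatment label of either sample, the genotype label, where the samples differ, gave the groups. THAP7-AS1 itself is not analysed here, and the knockdown was therefore not checked from its own level. Members were the 13 protein genes of the mitochondrial DNA and the genes whose symbols begin with the usual names of the nuclear-encoded subunits of complexes I to V, together with cytochrome c (CYCS). Assembly factors were not members. This rule found 96 of the 13017 listed genes, 13 of them mitochondrial and 83 nuclear. Of these, 95 had a mean of at least 1 FPKM (fragments scaled to gene length and library depth) over the 2 libraries and entered the comparisons. The remaining member, the readthrough gene ATP5MF-PTCD1, was at 0.692 FPKM after knockdown and 1.07 FPKM in the control.

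Oxidative phosphorylation takes place in the inner mitochondrial membrane. Complexes I and II pass electrons to coenzyme Q, complex III passes them on to cytochrome c and complex IV reduces oxygen, while complexes I, III and IV pump protons that drive ATP synthase, also called complex V. Complex II is wholly nuclear-encoded. The other complexes are built from subunits of both genomes, and the mitochondrial genes are transcribed as long precursors from both strands of a small circular DNA, most of them from one strand and MT-ND6 from the other.

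With 1 library per group there was no replicate check and no test between the groups, and every difference describes these 2 libraries. FPKM values summed to 213442 in the knockdown and 213888 in the control library. In genes with a single annotated transcript, values times length between 80 and 100 gave a depth of about 11100000 and 10900000 fragments. Only 14 genes of the knockdown and 10 of the control library lay in that window. The depth is an estimate rather than a count. Its range is bounded by the chosen window, so whether the libraries had similar depths was not tested. Ratios are log2((knockdown FPKM + 1)/(control FPKM + 1)), a scale that understates differences of low genes. Where a pair of FPKM values is given, the knockdown library comes first and the control library second. Over all 10925 genes that averaged 1 FPKM or more the median log2 ratio was 0.02. All 8 markers of breast epithelial cancer cells were measured, with summed levels of 2255 and 2207 FPKM in the knockdown and control libraries. EGFR was lower after knockdown, at 258 and 336 FPKM, as was CDH1, at 12.4 and 17.1 FPKM, while the others were higher. KRT19 made the largest part of the sums, with 1106 and 1057 FPKM. Fibroblast markers summed to 0.878 and 0.874 FPKM, with 2 of 6 listed, and leukocyte markers to 4.55 and 4.64 FPKM, with 2 of 5 listed, CD68 and LYZ.

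Some neighbouring mitochondrial genes overlap on the DNA, and this bears on how their FPKM values can be read. The sequences below, from GENCODE release 29 on GRCh38, plus strand, 5′ to 3′, show the bases that belong to both genes in capitals. MT-ATP8 and MT-ATP6 share 46 bases (chrM:8527-8572) and the printed stretch is chrM:8515-8584. MT-ND4L and MT-ND4 share 7 bases (chrM:10760-10766) and the printed stretch is chrM:10740-10786.
MT-ATP8 and MT-ATP6: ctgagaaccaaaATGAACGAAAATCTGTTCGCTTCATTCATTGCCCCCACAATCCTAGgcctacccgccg
MT-ND4L and MT-ND4: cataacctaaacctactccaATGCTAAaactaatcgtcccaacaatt
In both stretches the capitals begin with the ATG of the second gene. The files' build, hg19, differs from GRCh38, and these coordinates describe the annotation only.

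Transcripts of the genomes were present at very different levels. The 13 mitochondrial genes took 14.6% of the summed FPKM in the knockdown cells and 15.8% in the control library, and the 83 nuclear genes 1.86% and 1.77%. Summed over members, mitochondrial FPKM was 7.85 times nuclear FPKM in the knockdown cells and 8.92 times in the control library. A single gene, NDUFS5, held 21.6% and 20.2% of the nuclear sums, and without it these ratios were 10.0 and 11.2. The gap differed between complexes. In the control library the median of the 7 mitochondrial complex I genes was 2034 FPKM against 17.8 FPKM for 38 nuclear complex I genes, a ratio of 114, and in the knockdown library 1761 against 19.4 FPKM, a ratio of 91.0. Complex IV showed ratios of 72.7 in the knockdown and 71.9 in the control library, with nuclear medians of 62.2 and 63.4 FPKM. Complex V showed 54.2 and 64.3, and MT-CYB, the only mitochondrial gene of complex III, stood 22.1 and 21.7 times above the median of its 10 nuclear partners. FPKM also depends on the transcript models used. Each mitochondrial gene is annotated with 1 transcript, while most nuclear members have several. The part of these models in the gaps, and in their differences between complexes, was not tested.

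**Figure D1:**
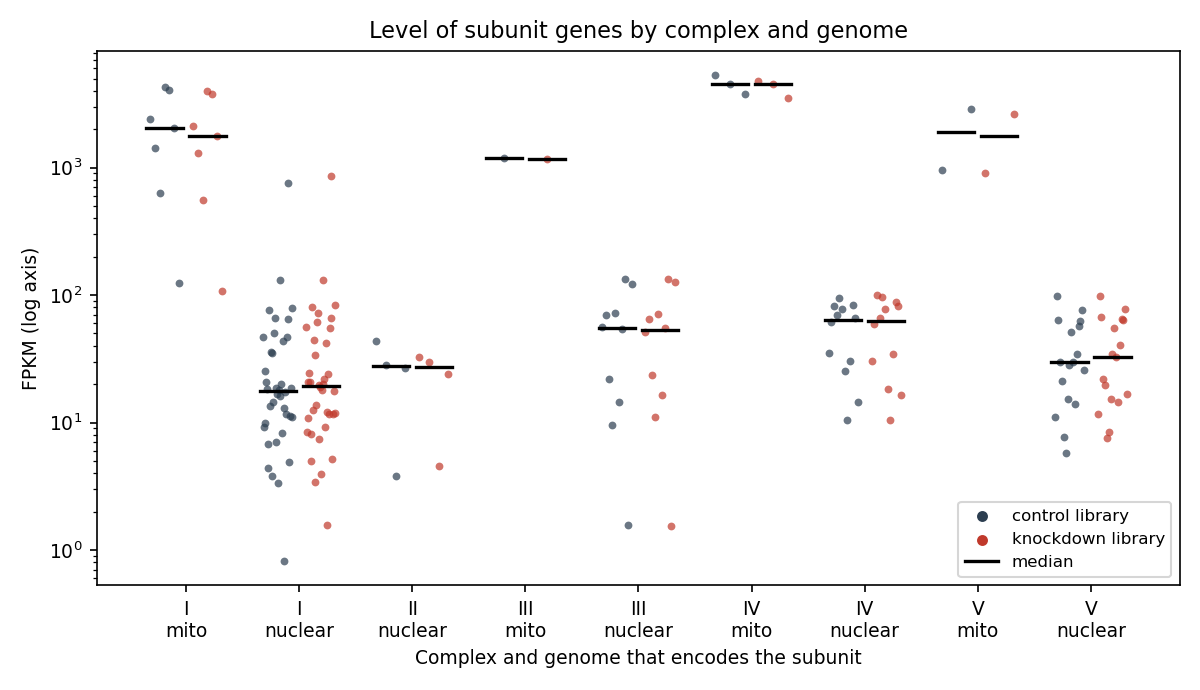
FPKM (log axis) of each subunit gene with a mean of at least 1 FPKM, by complex and encoding genome, in the control library (dark points) and the knockdown library (red points); black lines are medians. Mitochondrial genes lie above nearly all nuclear genes of the same complex, with MT-ND6 (107 and 125 FPKM) as the low mitochondrial point and NDUFS5 (855 and 761 FPKM) as the high nuclear point.

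With the pseudocount of 1, no member was higher by 1.5-fold or more after knockdown and none lower. Of all 10925 genes, 2.98% and 2.46% were. With a pseudocount of 0.1, NDUFC2-KCTD14 was at least 1.5-fold higher and ATP5PO, which averaged 21.3 FPKM, at least 1.5-fold lower. With the pseudocount of 1 no member was 2-fold apart either, against 0.604% higher and 0.668% lower among all genes. Of 4065 genes averaging 10 FPKM or more, 4.11% were at least 1.5-fold apart, with 0 of the 82 members at that level. At 1.2-fold, a limit chosen after the values had been seen, 8 members were higher and 6 lower, all of them nuclear, beside 14.6% and 11.3% of all genes. Of the 95 members 42 had a log2 ratio below 0, with a member median of 0.04. These were unevenly divided between the genomes, since the 42 comprised 13 of 13 mitochondrial genes and 29 of 82 nuclear genes, where 46.9% of all genes were below 0.

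**Figure D2:**
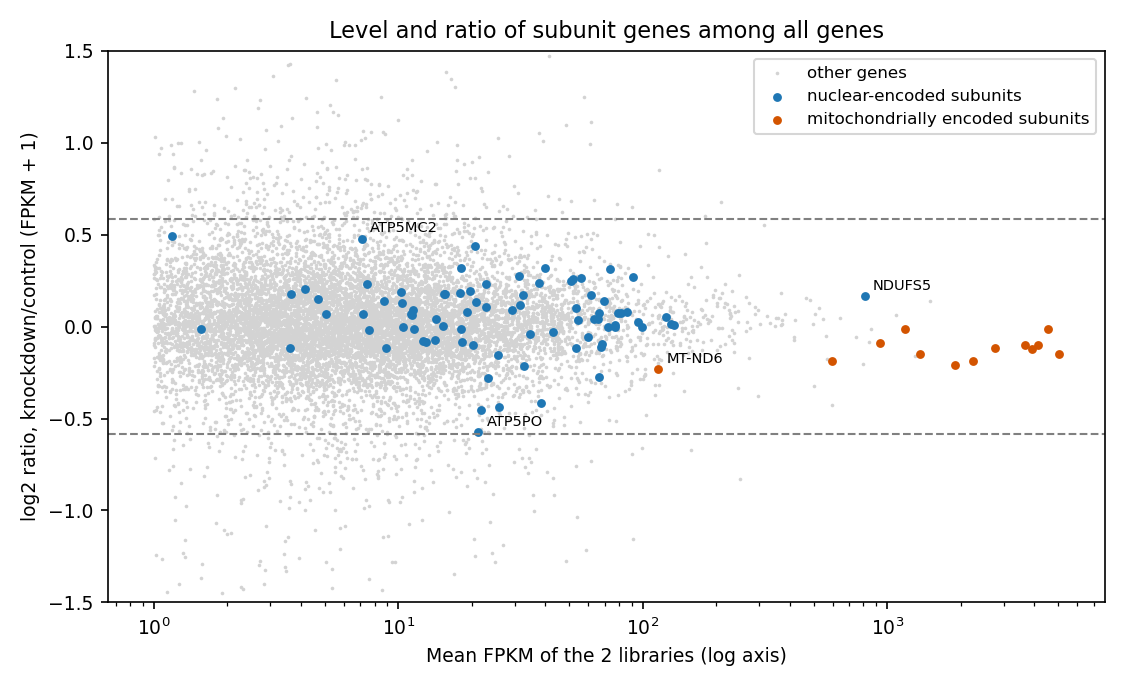
Log2 ratio of knockdown to control (FPKM + 1) against mean FPKM (log axis) for mitochondrial subunits (orange), nuclear subunits (blue) and other genes (grey), with dashed lines at 1.5-fold; 37 other genes lie beyond the vertical axis, which is limited to 1.5 in either direction. All subunits lie between the dashed lines, with ATP5PO at -0.57 nearest to one of them.

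The mitochondrial genes had a median log2 ratio of -0.12 and ranged from -0.23 to -0.01. The nuclear genes had a median of 0.07 and ranged from -0.57 to 0.49, so that the medians of the genomes were 0.19 apart while the values overlapped. Under quantile normalization, which compares ranks, the mitochondrial median was 0.0000 with 2 of 13 below 0, and the medians were 0.05 apart. By its construction, a gene with the same rank in both libraries gets a ratio of 0 there. Centring on all genes or rescaling without the mitochondrial genes left 13 of 13 below 0, with medians of -0.14 in both cases. The 13 mitochondrial genes share precursor transcripts and one library scaling factor and are not independent of each other. In a bulk sample, fewer cells with these transcripts and less transcript per cell cannot be told apart. The 230 genes outside the mitochondrial DNA averaging 100 FPKM or more, nuclear members included, had a median of 0.03, with 93 below 0. The 16 most abundant of these, among them NDUFS5, had a median of -0.03, with 9 below 0. These 16 ranged from -0.43 to 0.17. The highest of them averaged 1502 FPKM, against 5065 FPKM for MT-CO1. The most abundant mitochondrial genes thus had no other genes at their level, and the part of level in their ratios was not tested.

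Among mitochondrial genes of complex I, the NADH dehydrogenase that begins the chain, MT-ND1 was at 2103 FPKM after knockdown and 2392 FPKM in the control, giving a log2 ratio of -0.19 with an estimated counting error of 0.013. MT-ND2 was at 1296 and 1436 FPKM, giving a log2 ratio of -0.15. MT-ND3 was at 558 and 635 FPKM, giving a log2 ratio of -0.19. These genes encode membrane-embedded core subunits of the proton pump. MT-ND4 was at 3993 and 4285 FPKM and MT-ND4L, which overlaps it, at 3751 and 4083 FPKM, with log2 ratios of -0.10 and -0.12. MT-ND5 was at 1761 and 2034 FPKM, giving a log2 ratio of -0.21. MT-ND6, the light-strand gene and the least abundant of the 13, was at 107 and 125 FPKM, giving a log2 ratio of -0.23 with a counting error of 0.079. All 7 were lower in the knockdown library by 6.82% to 14.9% in FPKM, with a median log2 ratio of -0.19.

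The 6 mitochondrial genes of the other complexes had a median log2 ratio of -0.10. The catalytic cytochrome oxidase gene MT-CO1, the most abundant member, was at 4804 FPKM after knockdown and 5326 FPKM in the control, giving a log2 ratio of -0.15. MT-CO2, which carries the copper centre that receives electrons from cytochrome c, was at 4519.6 and 4558 FPKM, giving a log2 ratio of -0.01 with a counting error of 0.011. MT-CO3 was at 3531 and 3788 FPKM, giving a log2 ratio of -0.10. MT-CO1 and MT-CO2 are neighbours on the same precursor, and their ratios lay further apart than their counting errors. MT-CYB, which encodes the cytochrome b of complex III, was at 1178 and 1189 FPKM, giving a log2 ratio of -0.01 with a counting error of 0.017. The proton-channel gene MT-ATP6 was at 904 and 963 FPKM and MT-ATP8 at 2651 and 2877 FPKM, with log2 ratios of -0.09 and -0.12. These genes lie on one mRNA, yet MT-ATP8 had 2.93 times the FPKM of MT-ATP6 in the knockdown and 2.99 times in the control library. MT-ATP8 is annotated with 207 bases, of which the 46 printed above also belong to MT-ATP6. FPKM of such short overlapping genes depends on how fragments were divided between them, and their levels per length are uncertain for that reason. The counting errors rest on the estimated depth and leave out the spread between cultures, which these data do not measure.

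**Figure D3:**
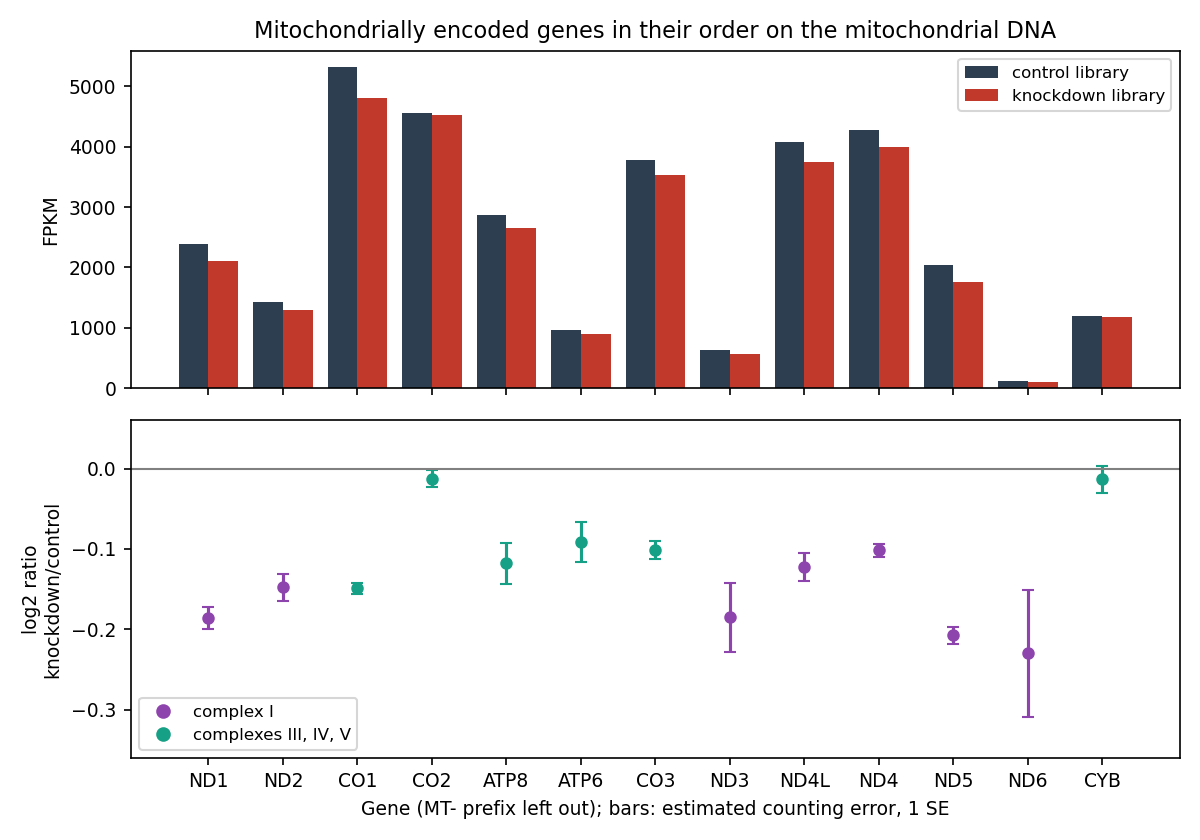
FPKM of the 13 mitochondrial genes in the control (dark bars) and knockdown (red bars) libraries, above, and their log2 ratios with the estimated counting error of 1 SE, below, in their order on the mitochondrial DNA. All 13 ratios are below 0, from -0.23 for MT-ND6 to -0.01 for MT-CO2 and MT-CYB, without a steady trend along the DNA.

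Nuclear genes of complex I had a median log2 ratio of 0.08, with 27 of 38 above 0. The medians of this complex thus lay on opposite sides of 0 by genome, with 11 nuclear genes on the same side as the 7 mitochondrial ones. Under quantile normalization MT-ND1, MT-ND3, MT-ND4, MT-ND4L and MT-ND5 were at 0.0000, and the mitochondrial median of the complex was then not below 0. Among the nuclear core subunits, which hold the flavin and the iron-sulfur clusters, differences of the genes given here were small. The flavoprotein genes lay on either side of 0 by small amounts, with NDUFV1 at 17.6 and 18.7 FPKM and NDUFV2 at 83.7 and 79.6 FPKM. The largest core subunit gene, NDUFS1, was at 12.2 and 13 FPKM. NDUFS3 was at 11.6 and 11.7 FPKM, NDUFS7 at 5.19 and 4.91 FPKM and NDUFS8 at 11.7 and 11.2 FPKM. The log2 ratios of these 6 genes lay between -0.09 and 0.07.

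The 31 accessory genes of complex I, which stabilise the core and help assemble it, had a median log2 ratio of 0.13, with 23 above 0. NDUFA8 was at 44.5 FPKM after knockdown and 35.5 FPKM in the control, giving a log2 ratio of 0.32 with an estimated counting error of 0.11. NDUFB8 was at 20.2 and 16.04 FPKM, giving a log2 ratio of 0.32. The NDUFB8 value is less certain, because ENSG00000255339, which shares exons with it, was at 5.01 and 9.31 FPKM. The same limit holds for all 17 members that share exons with another listed gene, among them NDUFA13, UQCR11 and COX6A1. NDUFB10 was at 61.0 and 50.7 FPKM, NDUFA1 at 56.4 and 47.0 FPKM and NDUFS4 at 55.5 and 46.6 FPKM, with log2 ratios between 0.25 and 0.26. Smaller positive ratios belonged to NDUFA13 at 24.7 and 20.9 FPKM, NDUFA3 at 8.14 and 6.80 FPKM and NDUFA2 at 20.98 and 18.2 FPKM, and to NDUFB4 at 19.05 and 16.7 FPKM and NDUFB5 at 3.92 and 3.36 FPKM. On the other side, NDUFA12, which sits beside the NADH-oxidising arm, was at 20.9 and 25.6 FPKM, giving a log2 ratio of -0.28. NDUFA10 at 8.49 and 9.29 FPKM and NDUFA9 at 3.42 and 3.78 FPKM each had log2 ratios near -0.11 to -0.12. The acyl carrier protein gene NDUFAB1 was at 34.1 and 35.1 FPKM, giving a log2 ratio of -0.04. The remaining accessory genes (NDUFA5, NDUFA6, NDUFA7, NDUFA11, NDUFB1, NDUFB2, NDUFB3, NDUFB6, NDUFB9, NDUFB11, NDUFC1, NDUFS6 and NDUFV3) had log2 ratios from -0.08 for NDUFA7, at 12.6 and 13.4 FPKM, to 0.15 for NDUFA5, at 4.98 and 4.40 FPKM. Of these, NDUFA7, NDUFB1 and NDUFB6 were below 0 and the others above. The readthrough gene NDUFC2-KCTD14 had the highest ratio of all members, 0.49, but at only 1.56 and 0.820 FPKM, while NDUFC2, whose exons it shares, was at 42.4 and 43.4 FPKM. Without the readthrough gene the nuclear complex I median was 0.08.

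Levels within complex I spread widely, although nearly every subunit is present in equal number in the assembled complex. NDUFS5 was at 855 FPKM after knockdown and 761 FPKM in the control, 6.37 and 5.70 times the next nuclear member, UQCRH of complex III. NDUFB7 followed within complex I at 132 and 131 FPKM. By its mean over both libraries the lowest gene that is not a readthrough was NDUFA9, and NDUFS5 stood 250.3 and 201.5 times above it in FPKM. In the control library alone NDUFB5 was lower than NDUFA9. Both libraries ordered the nuclear members nearly alike, with a Pearson r of 0.992 of log2(FPKM + 1) across 82 genes, which are not replicates and share library preparation and gene models. Level did not follow the median length of a gene's coding transcripts in this set, with a Spearman rho of -0.07 across the 82 genes. No correlation with all exonic bases of a gene was computed. Levels per length also depend on which transcript models the authors' tools used. NDUFS5 is annotated with 548 exonic bases and NDUFA9 with 10391. NDUFB7 has 531 and NDUFA5 has 9851, at means of 131 and 4.69 FPKM. The readthrough gene NDUFC2-KCTD14 goes the other way, with 826 exonic bases at a mean of 1.19 FPKM. The part of exonic length in the spread was not tested.

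**Figure D4:**
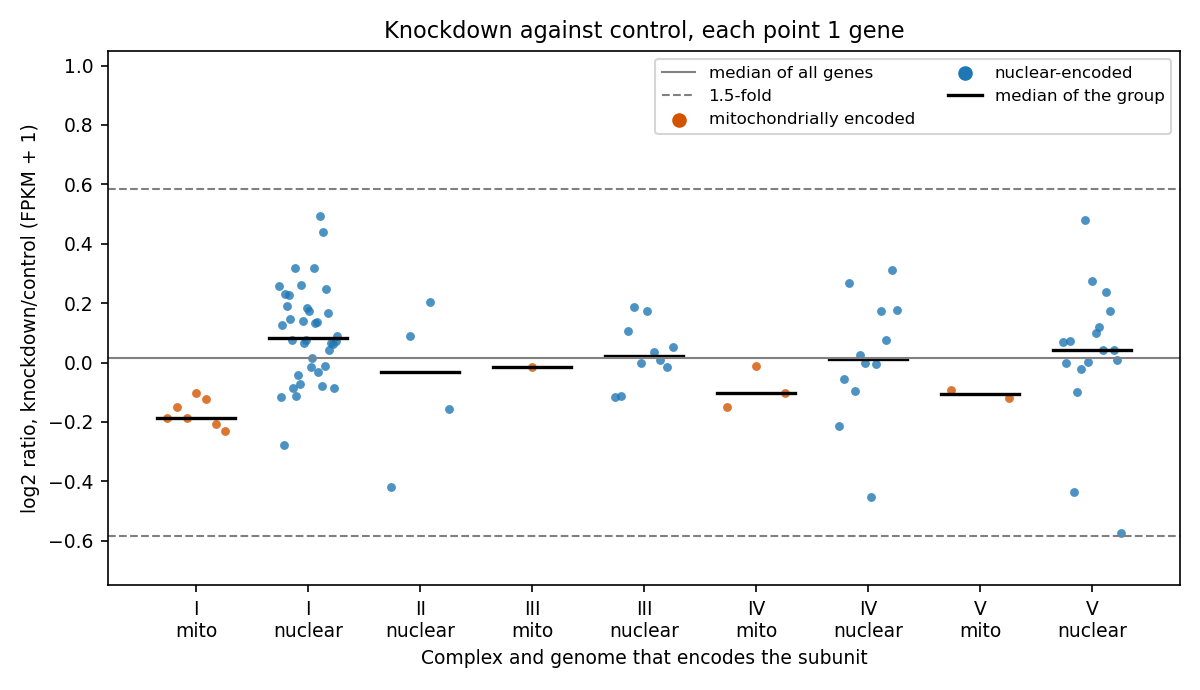
Log2 ratio of knockdown to control (FPKM + 1) of each subunit gene by complex and encoding genome, with group medians (black), the median of all genes (grey) and 1.5-fold (dashed). Mitochondrial genes of complex I (median -0.19) lie below 0 like all other mitochondrial genes; nuclear genes spread on both sides of 0 in every complex, with 27 of 38 above 0 in complex I and 12 of 17 in complex V.

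Complex II, succinate dehydrogenase, also acts in the citrate cycle. Its 4 genes had a median log2 ratio of -0.03 and lay on both sides of 0. SDHA, the flavoprotein that oxidises succinate, was at 32.6 FPKM after knockdown and 43.9 FPKM in the control, giving a log2 ratio of -0.42. Its iron-sulfur partner SDHB was at 30.0 and 28.1 FPKM, giving a log2 ratio of 0.09. Of the membrane anchors, SDHC was at 4.53 and 3.80 FPKM, giving a log2 ratio of 0.20, and SDHD at 24.1 and 26.97 FPKM, giving a log2 ratio of -0.16. SDHA is the only one of the 4 more than 1.2-fold apart.

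Complex III, the cytochrome bc complex, showed small differences throughout. Its 10 nuclear genes had a median log2 ratio of 0.02, which became -0.01 with quantile normalization, and all 10 were less than 1.2-fold apart. UQCRFS1, the Rieske iron-sulfur protein, was at 55.2 FPKM after knockdown and 53.8 FPKM in the control, and CYC1, which carries the haem that hands electrons to cytochrome c, at 51.4 and 55.8 FPKM. The core protein genes UQCRC1 and UQCRC2 were at 71.7 and 71.8 FPKM and at 16.4 and 14.4 FPKM. Among the small subunits, UQCRB was at 11.0 and 9.55 FPKM, UQCR10 at 64.9 and 70.2 FPKM, UQCR11 at 23.8 and 22.0 FPKM and UQCRQ at 127 and 122 FPKM. The log2 ratios ranged from -0.12 for CYC1 to 0.19 for UQCRB. UQCRH, the hinge protein gene, was at 134 FPKM in both libraries, and UQCRHL, a near-identical intronless copy of it, at 1.55 and 1.57 FPKM. Reads of such a pair cannot always be assigned to one copy. CYCS, the mobile carrier between complexes III and IV and also a trigger of apoptosis when released, was at 60.1 and 72.9 FPKM, giving a log2 ratio of -0.27.

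Complex IV, cytochrome c oxidase, had a nuclear median log2 ratio of 0.01, with 6 of 12 genes above 0, and the median was -0.004 when ratios were centred on all genes and -0.005 when FPKM was rescaled without the mitochondrial genes. COX8A was at 81.8 FPKM after knockdown and 65.7 FPKM in the control, giving a log2 ratio of 0.31 with an estimated counting error of 0.10. COX5B, which binds zinc, was at 99.8 and 82.7 FPKM, giving a log2 ratio of 0.27. At the other end, COX7A2 was at 18.2 and 25.3 FPKM, giving a log2 ratio of -0.45. COX4I1, the form of the regulatory subunit found in most tissues, was at 30.2 and 35.2 FPKM, giving a log2 ratio of -0.21. COX7A2L, a relative of COX7A2 that joins complexes III and IV into supercomplexes, was at 10.5 FPKM in both libraries, so that COX7A2 stood 1.74 times above it in the knockdown and 2.41 times in the control library. The remaining genes lay closer to 0. COX5A was at 58.8 and 61.1 FPKM, COX6A1 at 65.6 and 70.2 FPKM, COX6B1 at 96.2 and 94.5 FPKM and COX6C at 77.4 and 77.5 FPKM. COX7B was at 34.4 and 30.4 FPKM, COX7C at 88.3 and 83.6 FPKM, and NDUFA4, named for complex I but a subunit of complex IV, at 16.5 and 14.4 FPKM. COX4I2, COX6A2, COX6B2, COX7A1, COX7B2, COX8C and NDUFA4L2, forms of these subunits restricted to certain tissues or conditions, are not analysed here.

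Complex V had a nuclear median log2 ratio of 0.04, with 12 of 17 genes above 0, and held the lowest ratio of all members. ATP5PO (ENSG00000241837), the stalk protein that ties the catalytic head to the membrane part, was at 16.9 FPKM after knockdown and 25.7 FPKM in the control. Its log2 ratio of -0.57 corresponds to a 1.49-fold lower value, and with a pseudocount of 0.1 it was at least 1.5-fold lower. ENSG00000249209, which shares exons with it, was at 0.341 and 0.540 FPKM. The other 8 genes of the stalk and membrane part were above 0. Of these, ATP5ME was at 34.3 and 28.1 FPKM, ATP5MK at 40.8 and 34.5 FPKM and ATP5PB at 65.3 and 57.7 FPKM, with log2 ratios of 0.28, 0.24 and 0.17. ATP5MG was at 32.8 and 30.1 FPKM, ATP5MF at 55.4 and 51.6 FPKM and ATP5MJ at 14.5 and 14.02 FPKM. ATP5PD was at 63.96 and 62.1 FPKM and ATP5PF at 77.3 and 76.8 FPKM. ATP5PO was thus the single gene of the 9 with a ratio below 0, although ATP5PF, with a log2 ratio of 0.01, lay below the median of all genes.

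The catalytic head of ATP synthase had a median log2 ratio of -0.002 over 5 genes. ATP5F1D, the delta subunit of the rotor, was at 21.8 FPKM after knockdown and 29.9 FPKM in the control, giving a log2 ratio of -0.44. ATP5F1E, its epsilon partner, was at 19.6 and 21.0 FPKM, giving a log2 ratio of -0.10. ATP5F1A and ATP5F1B, the alpha and beta subunits that alternate in the head in equal number, were at 11.6 and 11.0 FPKM and at 98.9 and 99.1 FPKM. Their levels per length thus differed 8.52-fold in the knockdown and 8.99-fold in the control library. ATP5F1A is annotated with 10908 exonic bases and ATP5F1B with 2322. The part of the transcript models in this gap was not tested. ATP5F1C, the gamma subunit, was at 67.7 and 64.3 FPKM. The membrane ring of c subunits is encoded by 3 genes with the same mature protein. ATP5MC2 was at 8.41 and 5.76 FPKM, giving a log2 ratio of 0.48, whereas ATP5MC1 was at 7.54 and 7.67 FPKM and ATP5MC3 at 15.2 FPKM in both libraries.

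Because nuclear subunits share regulators, their promoters were searched for 3 motifs, written here with the factor known to bind such a motif: GCATGCGC for NRF1, CCGGAAG for GABPA and AAGATGGC for YY1. Windows of 250 bases before to 50 bases after each start, on both strands, came from RefSeq on GRCh38.p14. A window was matched by name, synonyms included, for 69 of the 83 nuclear members. The window taken for CYC1 lies on chromosome 4, away from the CYC1 gene, and belongs to another gene. It held none of the motifs and remains counted in the shares and medians below. The NRF1 letters were in 20.3% of members' windows, in 5.71% of the windows of 8793 other measured genes and in 3.27% of all 27305 windows. The corresponding shares were 28.99%, 21.1% and 10.7% for GABPA and 15.9%, 5.82% and 3.03% for YY1. Ratios were similar with and without the motifs. Members with the NRF1 letters had a median log2 ratio of 0.07 over 14 genes, against 0.05 over the 55 without. For GABPA the medians were 0.05 and 0.07, and for YY1 0.07 and 0.06. A total of 34 members, counting CYC1 with that window, held none of the 3 motifs and only ATP5PF and SDHB held all 3.

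The promoters of 3 complex V genes are shown because these genes had the highest, a near-zero and the lowest log2 ratio of that complex, 0.48 for ATP5MC2, 0.01 for ATP5PF and -0.57 for ATP5PO. Each is the 250 bases before the start on the gene's own strand, 5′ to 3′, from RefSeq on GRCh38.p14, with motif matches in capitals. All 3 lie on minus strands, at chr12:53676084-53676333 for ATP5MC2, chr21:25735055-25735304 for ATP5PF and chr21:33915805-33916054 for ATP5PO.
ATP5MC2: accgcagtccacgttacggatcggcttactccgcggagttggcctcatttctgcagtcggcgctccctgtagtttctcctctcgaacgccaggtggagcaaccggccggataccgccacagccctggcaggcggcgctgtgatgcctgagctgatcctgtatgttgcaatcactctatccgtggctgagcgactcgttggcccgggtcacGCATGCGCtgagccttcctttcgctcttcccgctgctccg
ATP5PF: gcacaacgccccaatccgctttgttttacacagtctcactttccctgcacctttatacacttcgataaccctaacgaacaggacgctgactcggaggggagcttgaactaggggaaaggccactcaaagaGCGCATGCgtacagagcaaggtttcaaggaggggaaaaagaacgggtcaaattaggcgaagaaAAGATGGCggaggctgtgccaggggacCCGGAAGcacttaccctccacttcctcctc
ATP5PO: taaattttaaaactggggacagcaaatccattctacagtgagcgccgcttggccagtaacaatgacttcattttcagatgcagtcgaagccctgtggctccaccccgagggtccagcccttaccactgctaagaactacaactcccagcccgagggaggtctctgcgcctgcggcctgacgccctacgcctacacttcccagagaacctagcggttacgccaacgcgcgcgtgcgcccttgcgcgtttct
The NRF1 letters lie 40 to 33 bases before the start of ATP5MC2. In ATP5PF they lie on the opposite strand 120 to 113 bases before the start, followed by YY1 letters at 57 to 50 and GABPA letters at 30 to 24. The printed part of ATP5PO holds none of the 3 motifs, but its window holds the YY1 letters in the 50 bases after the start, and it is counted among the 11 members with them. A match is a description of letters and not a measured binding site.

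Nuclear subunits are short genes, and transcript length moved with the ratio over all genes. Of the 82 nuclear members measured, 63 had a median coding transcript of at most 888 bases, the range of the shortest of 5 equal classes of other genes. That class had a median log2 ratio of 0.04, with 57.6% above 0, while the longest class had -0.02, with 46.1% above 0. The nuclear members had 0.07, with 64.6% above 0. Among the nuclear members themselves the ratio did not follow length, with a Spearman rho of -0.02 across 82 genes. The part of length in the nuclear median was not tested.

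Genes that build and supply the complexes were followed through 9 lists with 101 measured genes. Of the 101, 1 was at least 1.5-fold higher and 2 at least 1.5-fold lower, beside the 2.98% and 2.46% of all genes, and the median log2 ratio was 0.04. ESRRA, an orphan nuclear receptor known to switch on oxidative phosphorylation genes, was at 17.7 FPKM after knockdown and 8.64 FPKM in the control, giving a log2 ratio of 0.95. Its coactivator PPARGC1B was at 1.53 and 0.858 FPKM, giving a log2 ratio of 0.44, and PPARGC1A at 0 and 0.0114 FPKM. Of the other measured regulators, NRF1 was at 4.25 and 5.05 FPKM, GABPB1 at 2.01 and 2.39 FPKM and YY1 at 10.8 and 12.2 FPKM, all with log2 ratios below 0. GABPA was at 10.1 and 9.86 FPKM and the coactivator gene PPRC1 at 8.36 and 7.47 FPKM, with log2 ratios of 0.03 and 0.15. The 7 measured biogenesis regulators had a median of 0.03.

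Of the assembly factors, LYRM7, which holds the Rieske protein before its insertion into complex III, was at 0.491 FPKM after knockdown and 2.65 FPKM in the control, giving a log2 ratio of -1.29. Its client UQCRFS1 had a log2 ratio of 0.04. The other 5 complex III factors lay between -0.27 for TTC19 and 0.37 for UQCC3, which was at 31.8 and 24.4 FPKM. Complex I assembly had a median log2 ratio of 0.12 over 15 genes, or -0.01 when genes under a mean of 5 FPKM were left out, with ECSIT lowest at 5.77 and 8.94 FPKM, giving a log2 ratio of -0.55, and FOXRED1 highest at 6.03 and 4.86 FPKM. Complex IV assembly had a median of 0.05 with 18 of 23 above 0, from COX19 at 8.17 and 9.89 FPKM to COX11, a copper chaperone, at 5.49 and 3.52 FPKM. The 4 complex II factors had a median of 0.26, with SDHAF2, which helps attach the flavin to SDHA, at 14.8 and 19.4 FPKM, giving a log2 ratio of -0.37, opposite in sign to the other 3. Complex V factors had a median of 0.03, from TMEM242 at 3.29 and 3.49 FPKM to FMC1 at 2.55 and 1.502 FPKM, and the ATP synthase inhibitor ATP5IF1 was at 68.1 and 63.7 FPKM. Coenzyme Q genes had a median of 0.08 over 11 genes, or -0.03 with no filter on low values and -0.10 with a minimum mean of 5 FPKM, with COQ10B at 7.01 and 11.0 FPKM, giving a log2 ratio of -0.59, and COQ2 at 14.2 and 11.1 FPKM.

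Genes that act on the mitochondrial DNA and its transcripts are listed beside the lower mitochondrial genes. The DNA and transcription list had a median log2 ratio of 0.10, with 11 of 14 above 0. TFAM, which packages the mitochondrial DNA and starts its transcription, was the lowest at 14.9 FPKM after knockdown and 18.2 FPKM in the control, giving a log2 ratio of -0.27. The helicase gene TWNK was the highest at 8.06 and 5.18 FPKM, giving a log2 ratio of 0.55. The RNA polymerase gene POLRMT was at 8.44 and 8.07 FPKM, and its cofactor TFB2M at 18.1 and 17.8 FPKM. The RNA processing and decay list had a median of -0.04, with 10 of 16 below 0, from FASTK at 2.88 and 4.07 FPKM to SLIRP at 20.2 and 16.6 FPKM. LRPPRC, the partner of SLIRP in a complex that stabilises mitochondrial mRNAs, was at 25.1 and 27.1 FPKM, giving a log2 ratio of -0.11. The part of these genes in the lower mitochondrial levels was not tested.

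**Figure D5:**
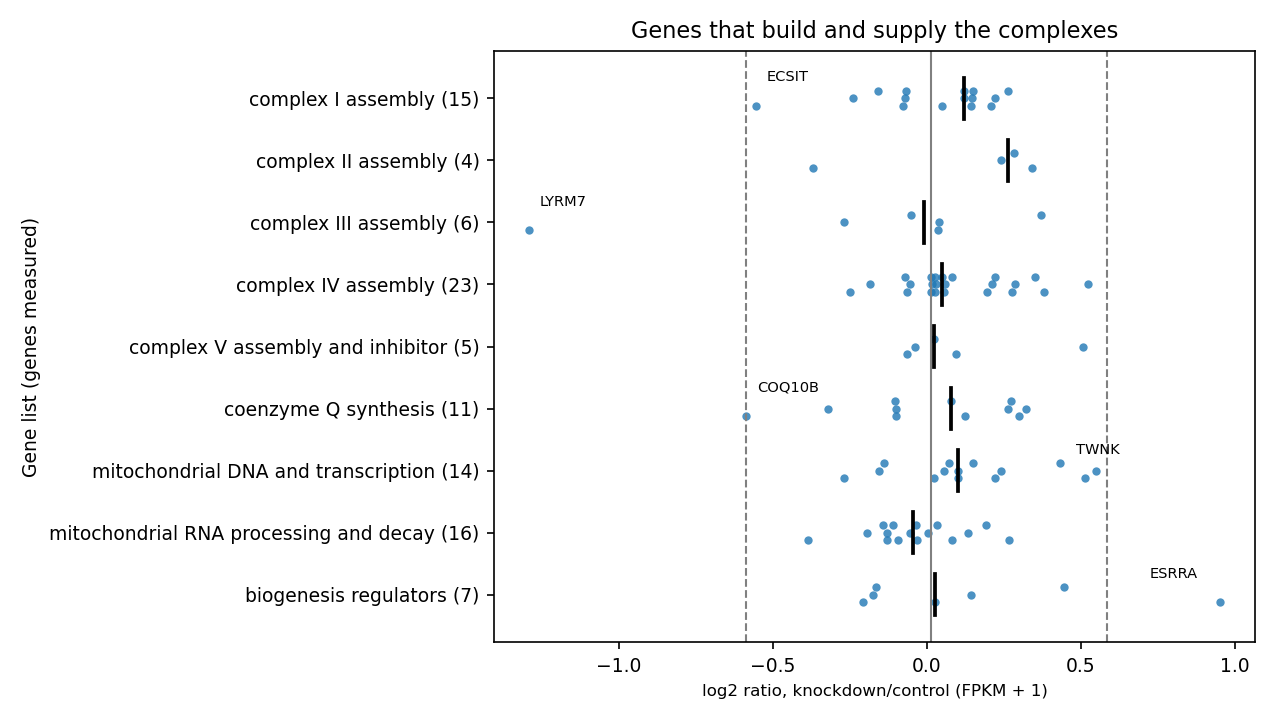
Log2 ratio of knockdown to control (FPKM + 1) of the measured genes in 9 lists of assembly factors, coenzyme Q synthesis, mitochondrial DNA and RNA factors and regulators; black marks are list medians, the grey line the median of all genes and dashed lines 1.5-fold. ESRRA (0.95) and LYRM7 (-1.29) lie outside the dashed lines and COQ10B (-0.59) lies on one.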

How the data were processed

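RNA was sequenced from 1 culture sample of each group. The authors deposited a table of FPKM values for each library, as its header says. Per the submitters' processing notes, the tools included StringTie, cutadapt and HISAT2 2.0.5, with hg19 as the build. Annotation, strandedness and other versions are not stated in those sources. Without stated strand, reads of overlapping antisense genes cannot be told apart, and reads of members with near-identical copies may be divided. Version-stripped identifiers were matched to symbols (12903 of 13017). GENCODE release 29, matched by identifier for 12933 genes, gave lengths and shared exons.

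Log2 ratios used a pseudocount of 1 and genes averaging 1 FPKM or more. Depth was estimated from values times length between 80 and 100 in genes with a single annotated transcript, a window set after seeing the values; counting errors follow from it. With 1 library per group, folds of 1.5 and 2 took the place of a test. NDUFA4 was counted with complex IV. The values of 1 member are not reported here. Named are all mitochondrial genes, the extremes of each complex and list, the isoforms, and further members to account for the set. Motifs, the split of complex I and V into parts and the 1.2-fold limit were added after the values had been seen. The members and lists were chosen with earlier results of these data known. Alternatives changed the pseudocount, filter, scaling, statistic and members. Calculations used pandas 2.3.3, numpy 2.4.6 and scipy 1.17.1 in Python 3.11.15, with plots from matplotlib 3.10.9, and the ratios were tested on simulated data.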

Additional observations from a re-analysis of the deposited data

How the results depend on the processing

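With 1 library per group, no value has a replicate error, and each alternative was set against the spread over the genes of its list. No paired analysis was possible because each group has 1 library. The medians of complexes III and IV, complex I assembly and coenzyme Q genes changed sign in the settings named beside them, in each case by less than the spread over their genes; no other median given by genome, complex or list did. The count of members at least 1.5-fold apart was 0 and became 2 with a pseudocount of 0.1 (NDUFC2-KCTD14 higher, ATP5PO lower), and 1 (ATP5PO, lower) with centring, with rescaling without mitochondrial genes and with quantile normalization. The mitochondrial median of -0.12 was 0.0000 with quantile normalization. The complex II assembly median of 0.26 was 0.18 with a pseudocount of 5. The nuclear median ranged from 0.05 to 0.07 over the alternatives. Without NDUFS5, a choice made after seeing the data like that on readthrough genes, nuclear members held 1.46% of the summed FPKM in the knockdown and 1.41% in the control library. Of 475 values of single members, 12 changed sign, where a value that became exactly 0 was not counted. By at least the spread over genes of similar level, 5 moved. These were NDUFC2-KCTD14 with pseudocounts of 0.1 and 5, and MT-ND1, MT-ND3 and MT-ND5 with quantile normalization. The cause of these changes was not tested. Depth is an estimate bounded by its chosen window, which limits how far the counting errors can be trusted.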
